A study of Mus musculus with 10 samples.

Results

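The 10 colon libraries of this mouse RNA-seq study were separated by the level of 1 gene, Hoxb13, and all other genes were then compared between the separated libraries. Libraries in which Hoxb13 was under 50 FPKM formed the low side and libraries at 50 FPKM or more formed the high side. All 10 of the 10 libraries were placed, 2 on the low side and 8 on the high side. FPKM, fragments per kilobase of transcript scaled to the fragments of the library, is a level per length. It is relative to the library, so a comparison between libraries also depends on what else each library holds. Total FPKM ran from 380001 to 404462 over the 10 libraries. Because a measured value chose the sides, everything on the difference between them is a description and carries no test.

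The study profiled messenger RNA in colon tissue of wild-type mice given either a normal diet or a pro-inflammatory diet, with 5 libraries for each diet. The low side consisted of pro-inflammatory diet 2 and 5. The high side held all 5 normal diet libraries and pro-inflammatory diet 1, 3 and 4. Every library therefore shared genotype and organ, and the side coincided in part with the diet, for which reason the 2 low libraries were also set against the 3 high libraries of their own diet. The labels used here give no strain, age, sex, diet composition or stretch of colon, and name no colitis-inducing agent for any library. Nothing in them says that the libraries of a diet came from separate mice, so a p-value for diet measures only the spread between these libraries, which may be technical.

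HOX genes encode transcription factors that lie in clusters and are used along the body axis in the order in which they lie, so that the posterior members, Hoxb13 and Hoxd13 among them, are known from the distal end of the gut. The epithelium of the colon also changes along its length. The distal colon takes up sodium through the epithelial sodium channel and exchanges potassium for protons through Atp12a, while lectins of the Reg3 family and the transporters that recover bile acids are better known from the ileum and the parts of the colon that follow it.

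Hoxb13 (chr11:96194316-96197447, + strand, mm10) was at 0.417 FPKM in pro-inflammatory diet 2 and 20.9 FPKM in pro-inflammatory diet 5. The levels in normal diet 1 to 5 were 211, 262, 218, 333 and 322 FPKM, and those in pro-inflammatory diet 1, 3 and 4 were 312, 292 and 341 FPKM. Between the library just under the threshold, at 20.9 FPKM, and the one just above it, at 211 FPKM, no library was found. In reads, the low levels corresponded to 10 and 455 fragments. The low libraries were therefore not equal in the gene that chose them.

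Osr2, a zinc finger transcription factor and 1 of the other 3 markers given for the split, was at 66.1 and 49.0 FPKM in pro-inflammatory diet 2 and 5, whereas 7 of the 8 high libraries lay between 0.0669 and 0.337 FPKM and normal diet 4 was at 3.58 FPKM. Hoxd13 was at 0.0222 and 0.293 FPKM in the low libraries, against a lowest, median and highest level of 16.5, 30.4 and 47.3 FPKM on the high side. Reg3b, a secreted antimicrobial lectin, reached 4429 and 3064 FPKM on the low side. Its lowest, median and highest levels on the high side were 0.149, 3.64 and 159 FPKM, the highest again in normal diet 4. None of these 3 genes overlapped between the sides. They were given as markers for the split, so this lends it no support. By level, Reg3b was gene number 2 in pro-inflammatory diet 2 and gene number 4 in pro-inflammatory diet 5.

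**Figure D1:**
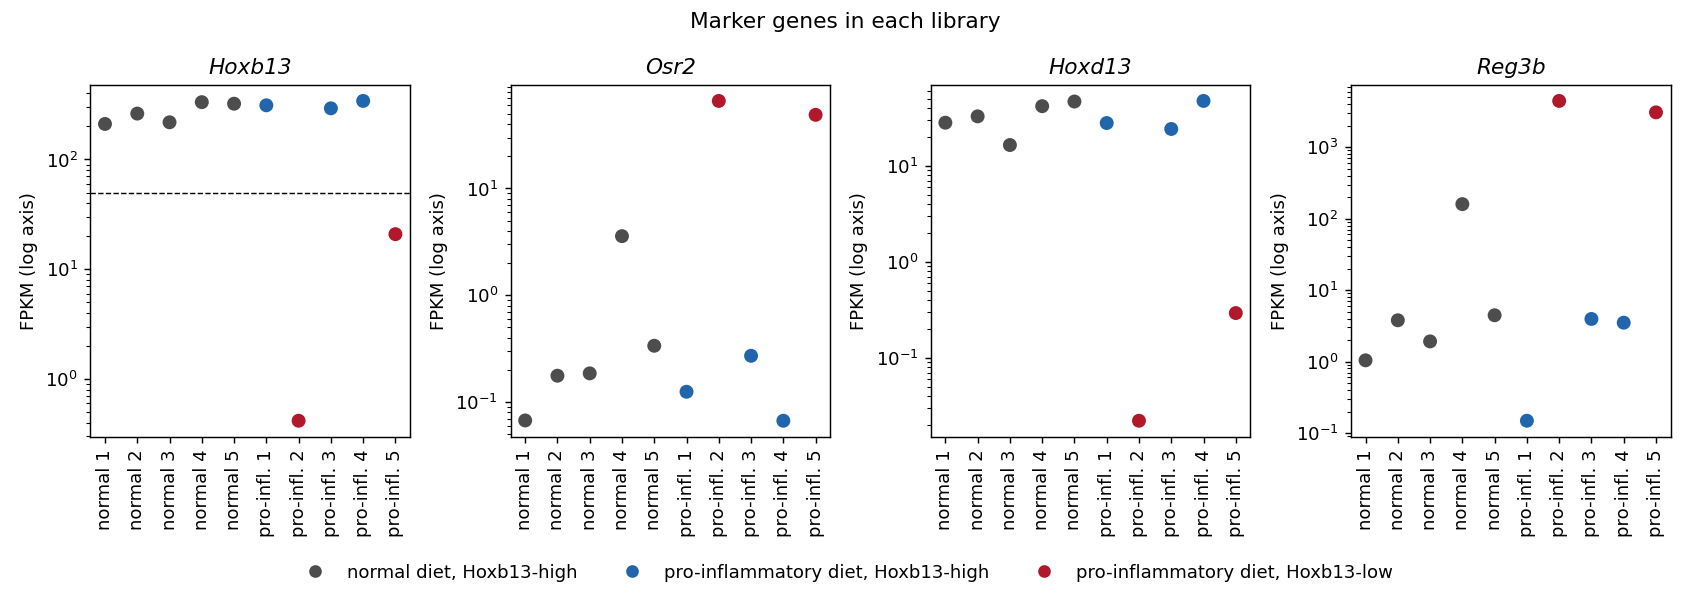
FPKM of Hoxb13, Osr2, Hoxd13 and Reg3b on log axes, 1 point for each of the 10 libraries, coloured by diet and side; the dashed line is the 50 FPKM threshold that set the sides. Pro-inflammatory diet 2 and 5 lie apart from the other 8 libraries in all 4 genes, and normal diet 4 has the next highest Osr2 (3.58 FPKM) and Reg3b (159 FPKM).

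The libraries held between 15652783 and 18341956 reads on genes, and both low libraries (17479885 and 15889133 reads) were inside the range of the others. Normal diet 4, on the high side, stood apart: 56 of its genes exceeded every other library by more than 10 times after 1 FPKM was added to each value, led by the skeletal muscle actin Acta1, the keratin Krt10 and the Paneth cell defensin Defa24. No other library held a gene of that kind. Its mean log2(FPKM + 1) over the 11 squamous epithelium genes that passed the filter was 5.04, against 0.45 to 0.64 in the other 9 libraries, and the counts that changed without it are given beside each list. Cdx1, an intestinal homeobox factor, was at 172 to 227 FPKM over all 10 libraries. Lct, the lactase of small intestinal enterocytes, was at most 0.0555 FPKM outside normal diet 4, where it was 1.47 FPKM. These genes were not used to place any library along the gut.

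A gene was called different between the sides when the side means of log2(FPKM + 1) differed by at least 1, a 2-fold difference, and both low libraries lay outside the range of the high libraries. Of 12344 genes with a mean of at least 1 FPKM, Hoxb13 left out, 340 (2.75%) were higher on the low side and 258 (2.09%) lower. The split itself was chosen on these libraries, so no weight is placed on these shares. Without normal diet 4 the counts were 349 and 251, of which 330 and 246 genes were shared with the counts over all libraries. At 4-fold or more the counts were 102 higher and 62 lower, and at 16-fold or more 16 higher and 9 lower. Within the pro-inflammatory diet alone, 2 libraries against 3, 382 genes (3.09%) were higher and 282 (2.28%) lower. The median difference over the 12344 genes was -0.03 in either comparison, and over all 18397 genes other than Hoxb13 it was -0.0094. In what follows, counts called refer to genes that passed the filter, and the median of a list is over every measured member, since a gene can pass the filter only through the libraries in which it is high. Of the 12344 genes, 137 averaged under 1 FPKM on the high side and passed through the low libraries. Osr2, Saa3, Mmp7, Nts and Acaa1b are among them. The markers Osr2, Hoxd13 and Reg3b are counted in the lists that hold them, where their calls lend the split no support.

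**Figure D2:**
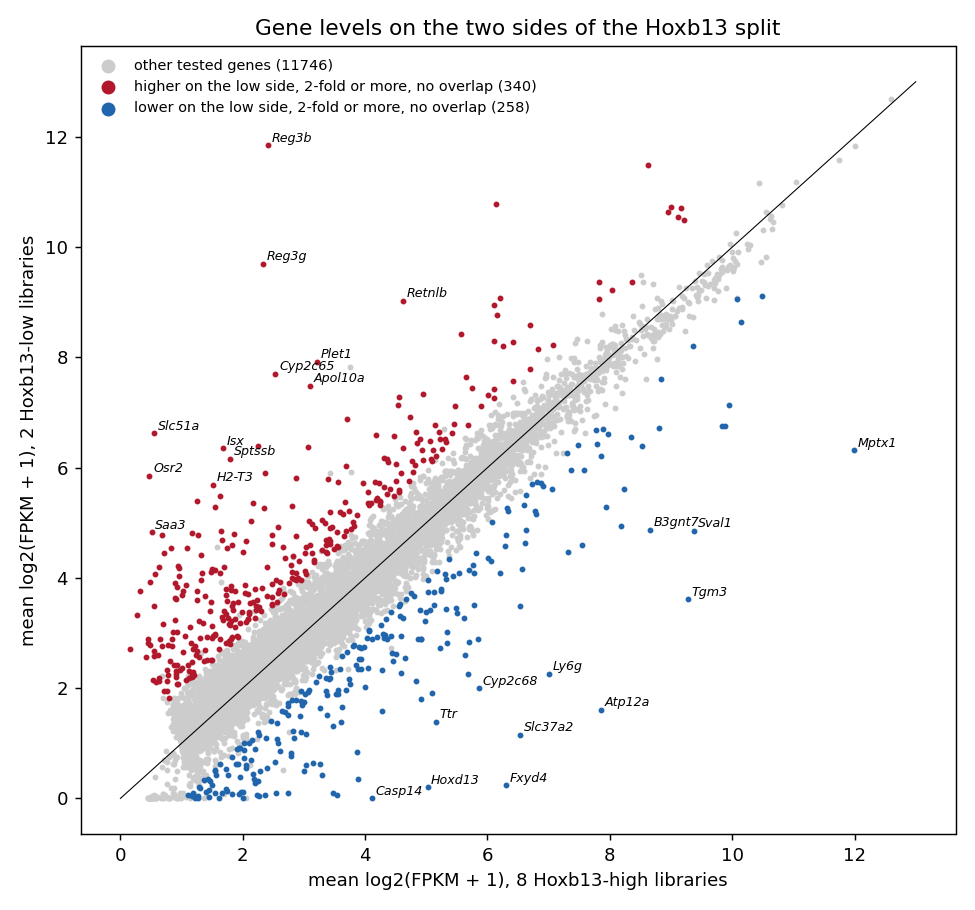
Mean log2(FPKM + 1) of each of the 12344 genes in the 8 high libraries (x axis) and the 2 low libraries (y axis); red points are the 340 genes called higher on the low side, blue points the 258 called lower, grey points the rest, and the line marks equal levels. Most genes lie along the line, and the labelled genes, led by Reg3b above it and Atp12a and Fxyd4 below it, are those with the largest differences.

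The 12 genes with the largest differences towards the low side were Reg3b (9.44 on the log2(FPKM + 1) scale), Reg3g (7.37), Slc51a (6.07), Osr2 (5.38), Cyp2c65 (5.17), Plet1 (4.71), Isx (4.67), Retnlb (4.41), Apol10a (4.38), Sptssb (4.36), Saa3 (4.32) and H2-T3 (4.17). They include secreted defence proteins (Reg3b, Reg3g, Retnlb), a bile acid exporter subunit (Slc51a), an intestinal homeobox factor that restrains vitamin A uptake (Isx) and a subunit of the enzyme that starts sphingolipid synthesis (Sptssb). The 12 with the largest differences in the other direction were Atp12a (-6.24), Fxyd4 (-6.06), Mptx1 (-5.69), Tgm3 (-5.67), Slc37a2 (-5.39), Hoxd13 (-4.82), Ly6g (-4.75), Sval1 (-4.53), Casp14 (-4.12), Cyp2c68 (-3.87), B3gnt7 (-3.78) and Ttr (-3.77). Atp12a is the colonic proton and potassium pump, Fxyd4 a regulator of the sodium pump, Tgm3 a protein cross-linking transglutaminase and B3gnt7 a glycosyltransferase. Casp14 had no read in either low library and 9.91 to 30.5 FPKM on the high side, which is at least 238-fold lower when 3 reads over each low library stand for the floor.

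Levels within the low side were not alike for all of these genes. Mptx1, a pentraxin-like secreted protein, was at 10.7 FPKM in pro-inflammatory diet 2 and 537 FPKM in pro-inflammatory diet 5, against 2555 to 5428 FPKM on the high side with a median of 4303 FPKM. Tgm3 was at 1.29 and 64.1 FPKM, against 415 to 859 FPKM. Fxyd4 (0.267 and 0.0977 FPKM, against 40.8 to 128) and Slc37a2 (1.29 and 1.15 FPKM, against 58.1 to 169) were close to each other in the low libraries. Over the 258 genes called lower, pro-inflammatory diet 2 was below pro-inflammatory diet 5 in 204 and above it in 49. Over the 340 genes called higher, pro-inflammatory diet 2 was above pro-inflammatory diet 5 in 193 and below it in 147. The library with the lower Hoxb13 was thus also the lower of the pair for most genes called lower, and for the genes called higher the split was more even. A relation of these genes to the level of Hoxb13 was not tested.

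**Figure D3:**
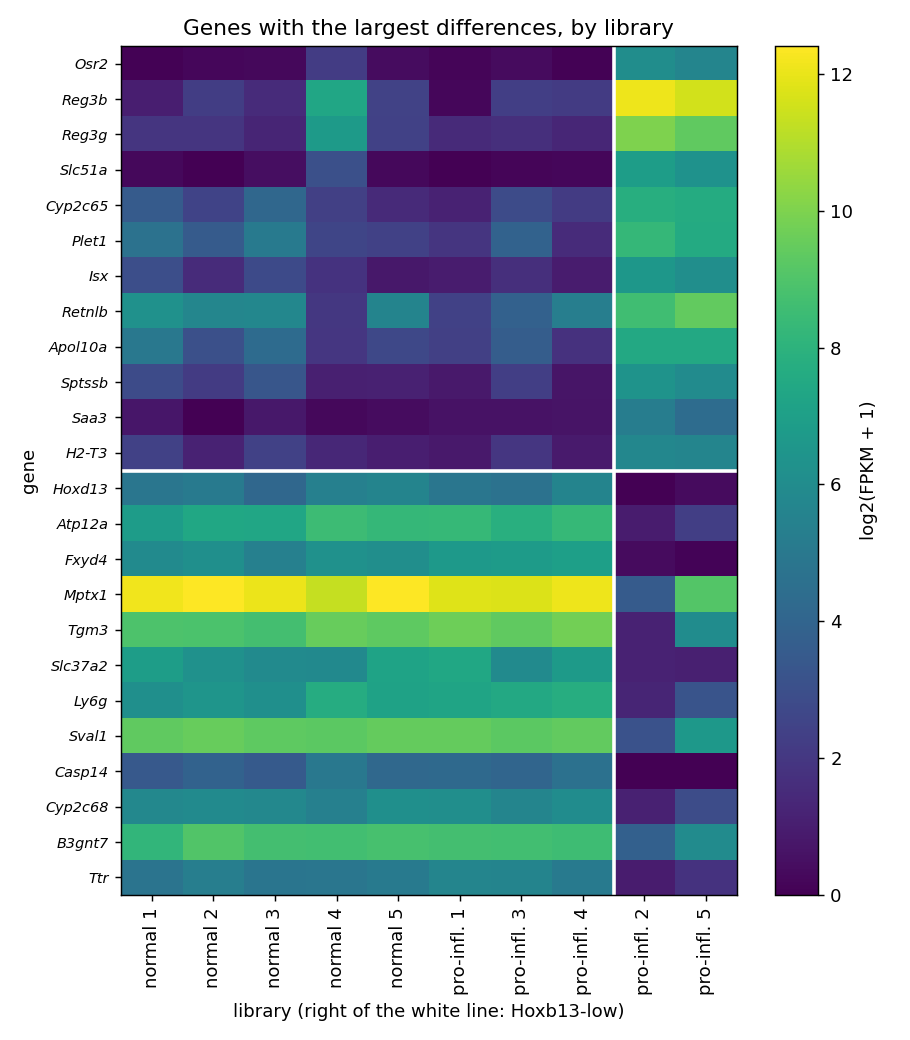
Colour map of log2(FPKM + 1) for the 12 genes with the largest differences in each direction (rows) in the 8 high and 2 low libraries (columns, low libraries right of the white line). Mptx1, Tgm3 and Sval1 are intermediate in pro-inflammatory diet 5 and lower in pro-inflammatory diet 2, and Reg3b, Reg3g and Slc51a are raised in normal diet 4 among the high libraries.

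Among the HOX genes, the difference between sides followed the paralogue group, the position of a gene within its cluster, in clusters B and D and much less in cluster A. Of 14 measured genes of groups 9 to 13 other than Hoxb13, 10 passed the filter, 4 were called lower and none higher, with a median difference of -0.25. The 4 were Hoxd13, Hoxa13 (4.16 and 10.6 FPKM, against 18.2 to 25.1), Hoxd12 (0 and 0.0744 FPKM, against 0.645 to 2.75) and Hoxd11 (1.26 and 0.492 FPKM, against 1.68 to 4.92). Of 23 measured genes of groups 1 to 8, 14 passed, 8 were called higher and none lower, with a median of 0.14, 16 members above 0 and 7 below. Hoxb3, Hoxb7, Hoxb8 and Hoxd4 averaged under 1 FPKM on the high side and passed through the low libraries. The 8 were Hoxb3, Hoxb4, Hoxb5, Hoxb6, Hoxb7, Hoxb8, Hoxd4 and Hoxd8, and the 2 against 3 libraries of the pro-inflammatory diet gave the same numbers called, 4 and 8.

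Hoxb6 had the largest of these differences, 4.15, at 55.6 and 30.6 FPKM in pro-inflammatory diet 2 and 5 against a lowest, median and highest level of 0.668, 1.40 and 2.68 FPKM. Hoxb8 was at 12 and 6.83 FPKM against 0.0962 to 0.325 FPKM. Hoxb9, whose start lies 77141 bases from that of Hoxb13 on chromosome 11, was at 40.7 and 36.6 FPKM against 18.8 to 26.1 FPKM, a difference of 0.77 that stayed under 2-fold although the sides did not overlap. Along cluster B, then, 6 neighbouring genes from Hoxb8 to Hoxb3 were at 2-fold or more on the low side, Hoxb2 was not (0.32), and Hoxb13 at the other end chose the sides. In cluster A, Hoxa13 alone was called. The members of Hoxa2 to Hoxa10 that passed differed by -0.76 to -0.04, and Hoxa11, a posterior gene, went the other way (0.73), at 5.19 and 4.45 FPKM against 1.85 to 3.61 FPKM without overlap. No gene of cluster C passed the filter, the highest mean on the low side being 0.394 FPKM for Hoxc10. The annotated spans of Hoxd3 and Hoxd4 overlap, so reads could be divided between them.

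**Figure D4:**
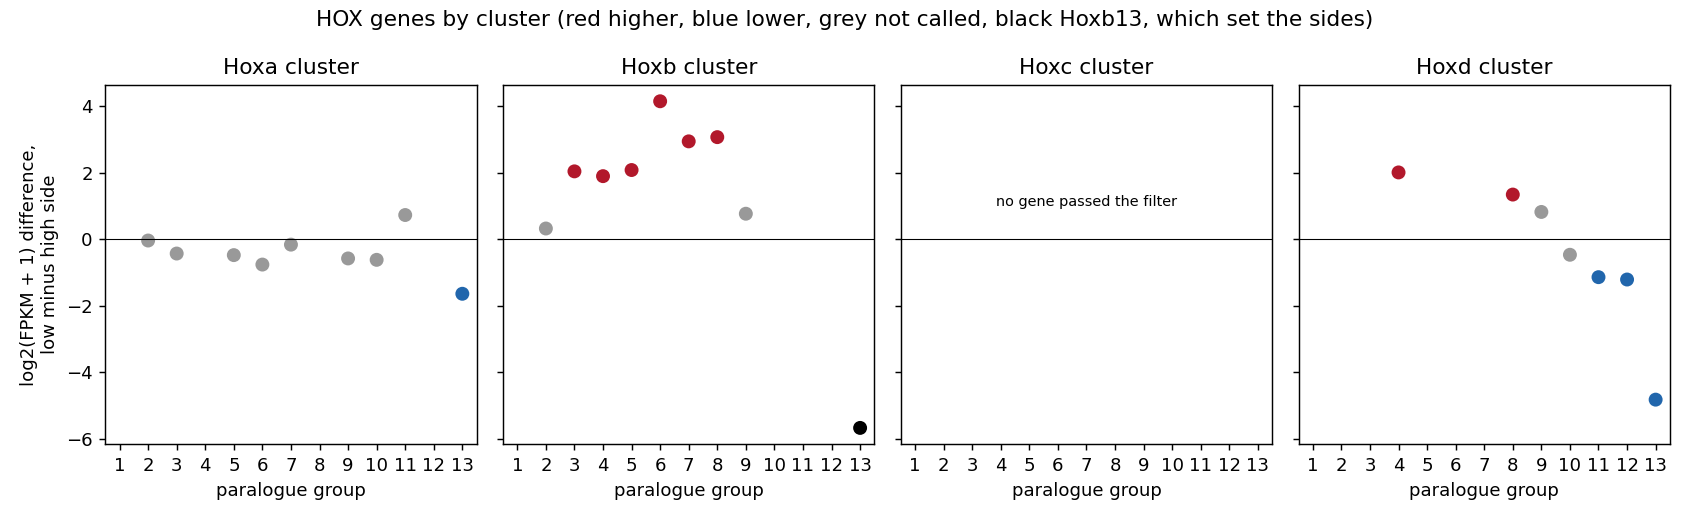
Difference of mean log2(FPKM + 1), low minus high side, for each HOX gene that passed the filter, by cluster and paralogue group; red is called higher, blue called lower, grey not called, and black is Hoxb13, which set the sides. Groups 3 to 8 of cluster B lie between 1.90 and 4.15, while the group 13 genes of clusters A and D lie at -1.64 and -4.82.

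Of 23 measured transcription factors of gut patterning, 19 passed the filter, 4 were called higher and none lower, with a median of -0.02. Cdx2, the homeobox factor that sets intestinal identity, was at 123 and 118 FPKM in the low libraries against 12.7, 25.9 and 53.3 FPKM as lowest, median and highest on the high side. Its relative Cdx1 differed by only -0.16, at 184 and 172 FPKM against 173 to 227 FPKM. Isx was at 94.6 and 68.7 FPKM against 0.758 to 6.77 FPKM, and Tbx3, a T-box repressor, at 10.3 and 7.29 FPKM against 1.49 to 3.06 FPKM. The nuclear receptor Hnf4a (-0.07) and the mesenchymal factors Foxf1 (0.09) and Nkx2-3 (0.14) had nearly equal means on the sides.

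Genes listed as distal were low together. Of 11 such genes, 9 were called lower and none higher, with a median of -2.12; 3 of the 9, Hoxd13, Hoxd12 and Hoxa13, were already counted among the HOX genes. Atp12a was at 0.896 and 3.91 FPKM against a lowest, median and highest level of 116, 266 and 364 FPKM. Insl5, a hormone of distal enteroendocrine L cells, was at 1.85 and 11.9 FPKM against 42.4 to 55.4 FPKM. The subunits of the epithelial sodium channel did not move alike: Scnn1g was at 0.0561 and 0.0411 FPKM against 1.19 to 10.3 FPKM, Scnn1a at 16.4 and 24.6 FPKM against 33.5 to 49.1 FPKM, just under 2-fold, and Scnn1b at 4.02 and 4.96 FPKM within the high range of 3.09 to 7.32 FPKM.

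The proximal label was less clear. Of 8 genes listed as proximal, 3 were called higher (Osr2, Slc9a3 and Cyp2c55), 1 was called lower (Ggh) and 4 were not called, with a median of 0.14. Osr2 was given as a marker for the split, so apart from it only Slc9a3 and Cyp2c55 were called higher. The sodium and proton exchanger Slc9a3 was at 41.9 and 67.6 FPKM against 18.8 to 36.9 FPKM, and the cytochrome Cyp2c55 at 403 and 291 FPKM against 23.5 to 114 FPKM. Ggh, a folate-processing hydrolase, was at 6.21 and 16.6 FPKM against 83.0 to 103 FPKM, opposite to its list. Ang4, a goblet and Paneth cell ribonuclease, was at 32.4 and 321 FPKM, on either side of the high median of 206 FPKM. The low libraries are therefore called by their Hoxb13 level here, and no segment is assigned to them.

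Other transporters differed in both directions. Of 37 measured electrolyte and water transport genes, 34 passed, 3 were called higher and 9 lower, with a median of -0.32. The carbonic anhydrases divided: Car1 was at 3568 and 2334 FPKM against 165 to 845 FPKM, and Car12 at 22.9 and 19.5 FPKM against 1.69 to 6.73 FPKM, whereas Car2 was at 241 and 357 FPKM against 477 to 1007 FPKM. The water channel Aqp8 (47.7 and 111 FPKM, against 170 to 292), the chloride and bicarbonate exchanger Slc26a3 (59.5 and 146 FPKM, against 204 to 510) and the goblet cell channel Best2 (1.41 and 4.08 FPKM, against 23.9 to 36.3) were lower. Among 18 tight junction genes that passed, Cldn15 was higher (105 and 113 FPKM, against 35.8 to 70.9) and Cldn8 lower (12.1 and 7.14 FPKM, against 24.8 to 59.6). Of 25 short-chain fatty acid and nutrient transport genes 21 passed, 5 were called higher and 2 lower, with a median of 0.02. The peptide transporter Slc15a1, from the enterocyte list, was lower (2.87 and 13.2 FPKM, against 44.5 to 73.9) and the amino acid transporter subunit Slc3a1 was higher (41.8 and 46.3 FPKM, against 0.655 to 4.69).

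Of 10 measured genes of ileal bile acid handling 6 passed the filter, 4 were called higher and none lower. The median was 1.02, with 7 members above 0 and 3 below. Slc10a2, the apical bile acid importer, was at 39.5 and 40.7 FPKM against 2.13 to 8.03 FPKM. Slc51a, a subunit of the basolateral exporter, was at 121 and 78.6 FPKM against 0 to 7.16 FPKM, the highest value being that of normal diet 4. Its partner Slc51b was at 180 and 133 FPKM against 17.0 to 33.3 FPKM, and the bile acid receptor Nr1h4 at 75.1 and 56.1 FPKM against 22.3 to 31.0 FPKM. Fabp6, the ileal bile acid binding protein, was at 405 and 125 FPKM. Normal diet 4, at 156 FPKM, overlapped it, and without that library Fabp6 was called higher too, making 5.

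Small intestinal enterocyte and Paneth cell genes gave no single direction. Of 15 enterocyte genes that passed, 2 were called higher, Fabp2 (395 and 479 FPKM, against 33.0 to 145) and the alkaline phosphatase Alpi (19.6 and 25.4 FPKM, against 0.284 to 2.79), and 3 lower, Apoc3, Rbp2 and Slc15a1. Without normal diet 4 the number higher was 4, with the disaccharidase Sis and the peptidase Enpep. The summed FPKM of the 20 enterocyte genes was 553 to 684 on the low side and 236 to 549.6 on the high side. In the low libraries Lct was at 0.0555 and 0.0407 FPKM and the glucose transporter Slc2a2 at 0.0222 and 0.0244 FPKM. Both were near 0 there, unlike Fabp2 and Alpi of the same list. What these levels mean for the tissue taken was not tested. Of 10 Paneth cell genes that passed, the protease Mmp7 was called higher (5.12 and 4.73 FPKM, against 0 to 3.36) and Mptx1 and Mptx2 lower. Mmp7 averaged 0.536 FPKM on the high side and passed the filter through the low libraries. Mptx2 was not called without normal diet 4, nor within the pro-inflammatory diet.

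Of 28 measured Reg lectins and antimicrobial genes, 19 passed, 7 were called higher and 2 lower, with a median of 0.068. Reg3g was at 1038 and 668 FPKM on the low side, against 1.45 to 4.22 FPKM in 7 high libraries and 106 FPKM in normal diet 4. Retnlb, a goblet cell protein active against bacteria, was at 389 and 693 FPKM against a lowest, median and highest level of 3.10, 43.7 and 76.1 FPKM. The epithelial oxidase Duox2 (121 and 80.5 FPKM, against 23.4 to 34.0), its maturation factor Duoxa2, the nitric oxide synthase Nos2 and the acute phase protein Saa3 (37.8 and 19.8 FPKM, against 0 to 0.737) were the others called higher. Reg4 (28.4 and 31.5 FPKM, against 214 to 393) and Saa1 (486 and 623 FPKM, against 1069 to 1768) were lower. Members of the Reg and Saa families are similar in sequence, and reads could be divided between copies.

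Reg3b and Reg3g, both on chromosome 6, had the largest differences of the genes named here. The stretches before their starts are shown because these genes moved together. Both come from RefSeq (GRCm38.p6), are written 5′ to 3′ on the strand of the gene, and carry in capitals the TATAAAA motif, which begins at position -29 before Reg3b and -27 before Reg3g, counted back from the RefSeq start. The first is chr6:78370707-78370862 on the + strand and the second chr6:78468895-78469050 on the - strand.
Reg3b: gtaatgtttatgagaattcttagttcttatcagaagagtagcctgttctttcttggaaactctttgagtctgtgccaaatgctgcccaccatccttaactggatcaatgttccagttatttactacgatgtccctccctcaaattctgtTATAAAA
Reg3g: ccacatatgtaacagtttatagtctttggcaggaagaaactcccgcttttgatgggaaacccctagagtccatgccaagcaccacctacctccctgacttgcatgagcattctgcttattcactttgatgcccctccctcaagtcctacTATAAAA
Aligned end to end, these stretches of 156 bases had 100 identical, 54 mismatched and 4 gapped positions, an identity of 63.3%. TATAAAA, searched on both strands in the 250 bases before the start, was held by 7.75% of the 258 genes called higher that had a RefSeq window, 5.47% of 201 called lower, 2.53% of 9889 tested genes and 5.30% of all 27025 windows. A match is a run of letters and not a measured binding site.

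Mucus genes also differed in both directions. Of 21 goblet cell and mucus genes, all of which passed, 5 were called higher and 3 lower, with a median of 0.38. Muc2, the gel-forming mucin of the colon, was at 1867 and 1536 FPKM against 307 to 1084 FPKM, and the goblet cell factor Spdef at 40.7 and 39.5 FPKM against 8.77 to 37.0 FPKM. B3gnt6, which builds the core structure of mucin glycans, was at 23.5 and 26.0 FPKM against 0.359 to 10.2 FPKM. Sval1, an abundant secreted protein, was at 7.68 and 95.5 FPKM against 611 to 740 FPKM, and the surface mucin Muc1 at 1.86 and 2.61 FPKM against 3.21 to 7.81 FPKM. In bulk tissue, more cells of a type and more RNA per cell cannot be told apart.

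Of 16 hormone and enteroendocrine genes that passed, among 22 measured, 5 were called higher and 2 lower, with a median of 0.15. Of the 16, 2 averaged under 1 FPKM on the high side and passed through the low libraries, Nts among them. The neuropeptide Nts was at 14.6 and 13.7 FPKM against 0.101 to 1.08 FPKM, secretin (Sct) at 18.9 and 16.1 FPKM against 1.24 to 3.57 FPKM, and somatostatin (Sst) at 35.4 and 36.1 FPKM against 6.52 to 20.03 FPKM. Peptide YY (Pyy), made with Insl5 by L cells, was lower like it, at 40.8 and 56.4 FPKM against 118 to 147 FPKM. The 10 tuft cell genes had a median of 0.41 and none of the 7 that passed was called over all libraries, while within the pro-inflammatory diet Ltc4s was called higher (1.12).

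Enzymes of xenobiotic metabolism differed in both directions, also between close relatives: of 57 genes 48 passed, 12 were called higher and 7 lower, and the median was 0.21. Without normal diet 4, Gsta1 was also called higher, making 13. On chromosome 19, Cyp2c65 was at 221 and 194 FPKM against 1.31 to 16.8 FPKM, Cyp2c55 was higher as given above, and Cyp2c68 was at 1.18 and 6.31 FPKM against 42.0 to 72.2 FPKM. Among the Cyp2d genes, Cyp2d26 was higher (55.2 and 54.2 FPKM, against 7.69 to 15.1) and Cyp2d12 lower (2.90 and 4.83 FPKM, against 36.3 to 71.3). The glucuronosyltransferase Ugt1a1 was at 27.3 and 28.4 FPKM against 1.19 to 2.69 FPKM, and shares exons with Ugt1a6a, so that their reads may not be separable.

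Of 33 genes of fatty acid oxidation and ketogenesis, 32 passed, 5 were called higher and none lower, with a median of 0.38. Ppara, the nuclear receptor that drives genes of fatty acid oxidation, was at 7.80 and 8.12 FPKM against 2.06 to 2.98 FPKM. Pdk4, Angptl4 and Acaa1b were also among the genes called. Among 21 steroid and retinoid genes that passed, 6 were higher and 4 lower, with Aldh1a1, a retinoic acid producing enzyme, at 86.2 and 106 FPKM against 12.98 to 21.9 FPKM and the alcohol dehydrogenase Adh1 at 73.0 and 156 FPKM against 692 to 1198 FPKM.

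Of 15 adipocyte genes 13 passed, 3 (Cidec, Lpl and Pparg) were called higher and none lower, with a median of 1.11. Adiponectin (Adipoq) was at 20.5 and 9.85 FPKM against 0 to 11.1 FPKM, which overlap. The summed FPKM of the 15 adipocyte genes was 322 to 471 on the low side and 119 to 348 on the high side, so the sides overlapped. Part of the fatty acid list, such as Pdk4 and Angptl4, is also expressed by adipocytes, and the part of adipose RNA in its differences was not tested.

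Most interferon-stimulated genes were called. Of 40 listed genes 38 were measured and passed, all 38 had a positive difference, 32 were called higher and none lower, and the median was 1.60. Of the 38, 5 averaged under 1 FPKM on the high side and passed through the low libraries. Ifit1, which binds viral RNA, was at 23.3 and 61.3 FPKM in pro-inflammatory diet 2 and 5 against a lowest, median and highest level of 0.537, 2.06 and 4.47 FPKM. The ubiquitin-like modifier Isg15 was at 28.8 and 119 FPKM against 2.31 to 8.21 FPKM, and the RNA sensor Oas3 at 13.95 and 35.5 FPKM against 0.311 to 1.21 FPKM. Irf7, the factor that amplifies the interferon response, was at 91.1 and 212 FPKM against 18.1 to 29.4 FPKM. Pro-inflammatory diet 5 was the higher of the low libraries in these 4 genes. The mean log2(FPKM + 1) of the list was 4.05 in pro-inflammatory diet 2 and 4.88 in pro-inflammatory diet 5, against 2.29 to 3.03 on the high side, where normal diet 1 was highest. The chemokines Cxcl9 (5.68 and 4.56 FPKM, against 0.234 to 0.895) and Cxcl10 (4.31 and 7.14 FPKM, against 0.457 to 1.99), which respond to interferon and attract T cells, were among the 32.

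The stretches before the starts of Ifit1 and Isg15 are shown because this list moved as a block and a core of the interferon-stimulated response element, GAAA, any 2 bases and GAAA on either strand, can be searched in them. They are from RefSeq (GRCm38.p6), chr19:34640744-34640870 on the + strand and chr4:156200837-156200963 on the - strand, written 5′ to 3′ with every base of a match in capitals. The matches before Ifit1 begin at positions -104 and -85 and read on the opposite strand. Those before Isg15 begin at -78, -72 and -66 and overlap each other.
Ifit1: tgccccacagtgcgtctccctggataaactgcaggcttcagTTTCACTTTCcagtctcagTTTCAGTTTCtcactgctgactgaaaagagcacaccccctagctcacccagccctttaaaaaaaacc
Isg15: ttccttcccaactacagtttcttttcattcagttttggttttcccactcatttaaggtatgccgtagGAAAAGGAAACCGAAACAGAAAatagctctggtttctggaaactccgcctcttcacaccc
In the 250 bases before the start, 14 of the 21 called interferon genes with a RefSeq window (66.7%) held the core, against 8.44% of the 237 other genes called higher, 0.995% of 201 called lower, 2.67% of 9889 tested genes and 3.04% of all 27025 windows. The list was chosen as genes that respond to interferon, so its share lends the difference between the sides no support. No share was computed for its members that were not called. TTTATNG, a core bound by CDX factors, was held by 14.3% of genes called higher, 11.9% of those called lower and 6.49% of those tested. Over all 27025 windows its share was 10.2%. TTTACGA, a core of posterior HOX factors, was held by 1 gene called higher (0.388%) and 1 called lower (0.498%), beside 0.576% of those tested. TTTATNG can overlap TATAAAA on the opposite strand.

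Of 19 measured T cell and natural killer cell genes 11 passed and 7 were called higher, none lower. The median was 0.83 with all 19 above 0, although 4 of the 11, Gzmb and Gzma among them, averaged under 1 FPKM on the high side and passed through the low libraries. Granzyme B (Gzmb) was at 9.14 and 3.66 FPKM against 0.259 to 0.591 FPKM, granzyme A (Gzma) at 15.8 and 8.06 FPKM against 0.345 to 1.67 FPKM, and the T cell receptor chain Cd3e at 4.84 and 3.86 FPKM against 0.610 to 1.66 FPKM. The summed FPKM of the 19 genes was 68.9 to 105 on the low side and 16.7 to 36.5 on the high side. Without normal diet 4, Cd3d dropped out and 6 were called. Of 11 genes of MHC class II presentation 3 were called higher (H2-Ab1, Cd74 and H2-DMb1), the last only while normal diet 4 was included. The part of lymphocyte number in the interferon result was not tested.

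Fewer genes were called in the lists of other cell types. Over all tested genes 2.75% were called higher and 2.09% lower, so in short lists the absence of a call says little. Macrophage and monocyte genes had 19 positive differences and 1 negative. Their summed FPKM was 712 to 762 on the low side and 450 to 639 on the high side. The mean log2(FPKM + 1) of plasma cell genes was 4.10 to 4.44 on the low side and 3.29 to 3.92 on the high side. Among 15 B cell genes and 20 macrophage and monocyte genes none was called, with medians of 0.21 and 0.58, and of 8 plasma cell genes that passed the antibody joining chain Jchain (324 and 248 FPKM, against 81.6 to 163) and Mzb1 were higher. None of the 24 smooth muscle genes was called; their median was -0.14 against all 8 high libraries and 0.07 against the 3 of the same diet, and their summed FPKM was 3103 in pro-inflammatory diet 2 and 4120.0 in pro-inflammatory diet 5, against 3247 to 5125 on the high side. No gene was called among 20 enteric neuron and glia, 11 endothelial, 11 lymphoid follicle, 4 red blood cell or 17 clock genes that passed. Within the pro-inflammatory diet, the follicle chemokine Ccl20 and the clock genes Dbp and Ciart were called lower, and the median of the 17 clock genes moved from -0.10 to -0.50. Of 24 fibroblast genes, elastin (Eln) and Pi16 were lower. The 11 squamous epithelium genes that passed were at 0.45 and 0.51 in mean log2(FPKM + 1) on the low side, and normal diet 5 was also at 0.51. The 18 measured squamous genes summed to 502 FPKM in normal diet 4 and to 5.84 to 9.18 FPKM in the other libraries. Levels outside normal diet 4 were thus near the floor. Of 12 measured pancreas genes, 3 passed and Cela1, an elastase also known outside the pancreas, was lower (28.9 and 50.5 FPKM, against 209 to 282).

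Of 38 replication and mitosis genes, all had a positive difference with a median of 0.61, and 3 reached 2-fold: Plk1 (15.9 and 15.7 FPKM, against 6.22 to 7.93), Rrm2 and Tk1. Of 23 crypt stem cell and Wnt genes that passed, none was called higher over all libraries and the signalling proteins Sfrp2 (0.314 and 0.408 FPKM, against 1.82 to 5.16) and Bmp2 (6.34 and 6.57 FPKM, against 11.5 to 29.0) were lower. Within the pro-inflammatory diet Bmp3 was called higher (1.01).

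**Figure D5:**
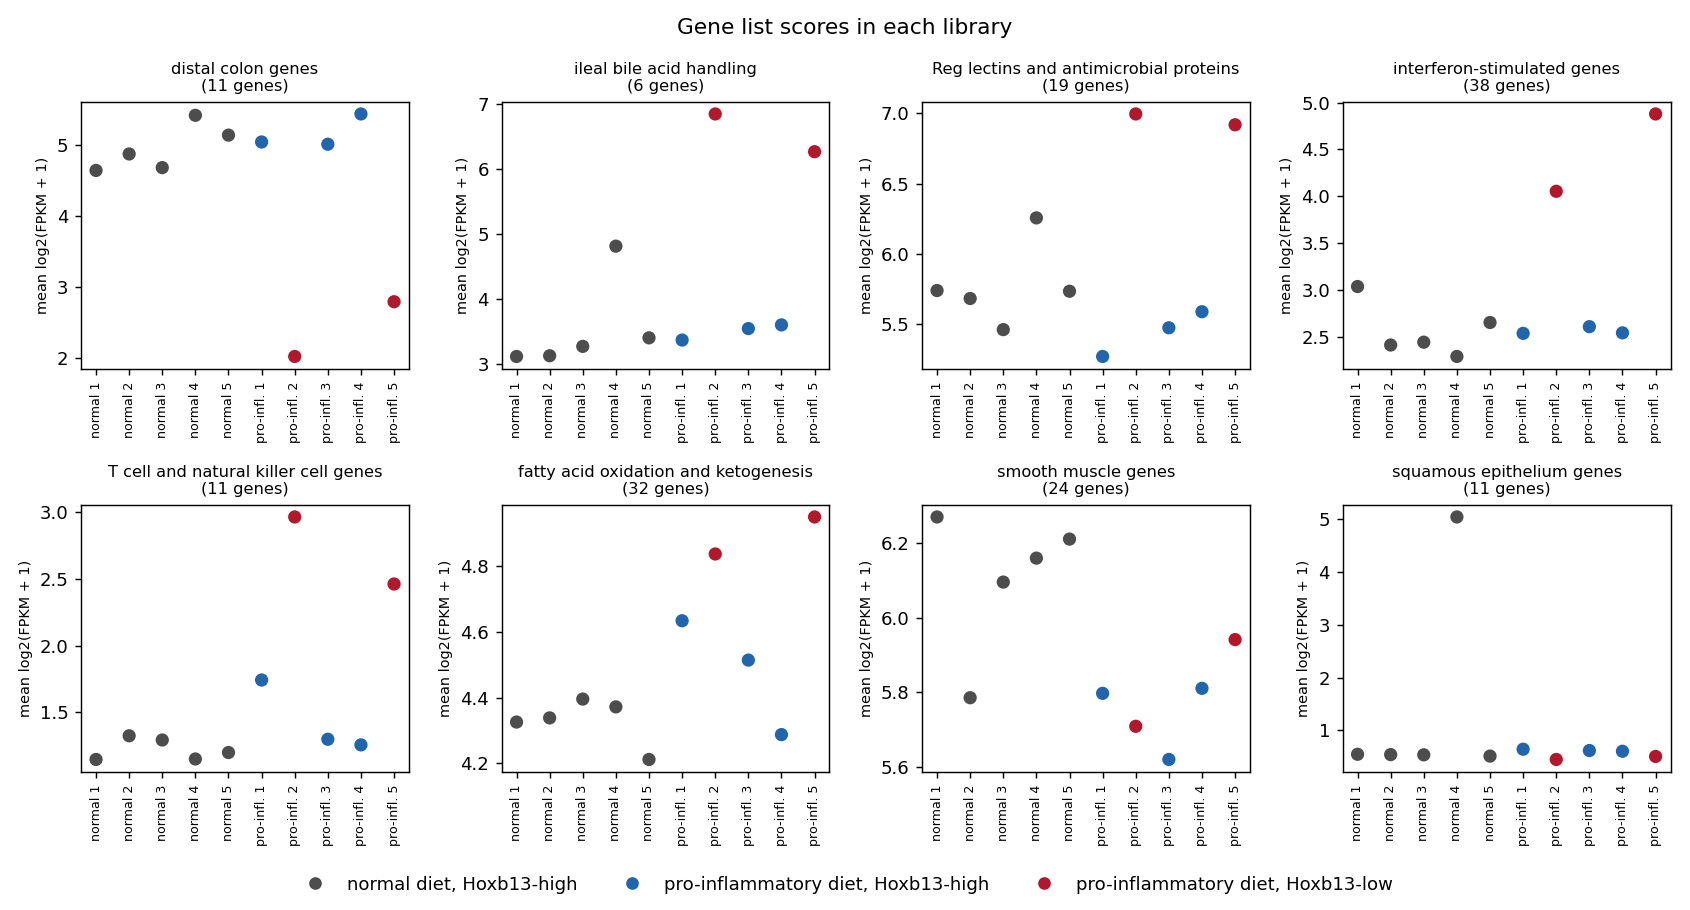
Mean log2(FPKM + 1) over the genes of 8 lists that passed the filter, 1 point for each library, coloured by diet and side; the y axes differ and do not start at 0. The low libraries are apart from the other 8 for distal, bile acid, Reg and antimicrobial, interferon, T cell and fatty acid lists, lie within the others for smooth muscle, and normal diet 4 alone is high for squamous epithelium (5.04).

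The genes whose levels over the 10 libraries ran most nearly in parallel with Hoxb13, by the correlation of log2(FPKM + 1), were Tgm3, Sval1, Insl5 and Slc15a1, and those that ran most nearly opposite were Hoxb4, Hoxd4, Gzmb and Lpcat4. No coefficient is given, since the libraries form separate clusters. Their order over the libraries follows from that choice. Lpcat4, a phospholipid-remodelling acyltransferase, was at 31.4 and 16.03 FPKM against 4.24 to 7.61 FPKM, and Hoxb4 at 10.4 and 4.24 FPKM against 0.636 to 1.81 FPKM.

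The high libraries also varied among themselves in genes that separate the sides. Of the 340 genes called higher, the high library nearest to the low side was normal diet 1 in 115 and normal diet 3 in 82, together 197, and of the 258 called lower it was normal diet 3 in 92 and normal diet 1 in 60, together 152. Plet1, an epithelial surface protein, was at 24.4 and 33.3 FPKM in normal diet 1 and 3, at 13.9 FPKM or less in the other 6 high libraries, and at 304 and 190 FPKM on the low side. Atp12a was at 116 and 159 FPKM in normal diet 1 and 3, 168 FPKM in normal diet 2, and 228 to 364 FPKM in the other 5. Normal diet 1 and 3 also had the lowest Hoxb13 of the high side, 211 and 218 FPKM. Hoxb13 set the split on which these genes were called, and a graded relation to it was not tested. Over all genes that passed the filter, the correlation of log2(FPKM + 1) across genes was 0.988 between the low libraries and 0.956 to 0.992 between pairs of high libraries. Across the sides it was 0.911 to 0.953, and genes are not independent replicates.

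The labels themselves compare the diets, and that comparison was tested with limma on log2(FPKM + 1) with Benjamini-Hochberg adjustment over 12345 genes. No gene passed an adjusted p of 0.05 in either direction (0% called). Before adjustment, 1007 genes had p under 0.05 with a higher mean on the pro-inflammatory diet and 1142 with a lower mean. Together these were 17.4% of the 12345 genes, and the smallest limma adjusted p was 0.147. A count of 0 therefore does not show that the diets are alike. With limma voom on the reads recovered from the FPKM values the count was also 0, with 939 and 1226 genes before adjustment. Hoxb13 differed by -2.08 ± 1.37 (SE) on the log2(FPKM + 1) scale between 5 pro-inflammatory and 5 normal diet libraries, with a limma adjusted p of 0.427. Reg3b differed by 2.75 ± 2.44 (SE), with a limma adjusted p of 0.551, being higher in 2 of the 5 pro-inflammatory diet libraries. Osr2 (1.83 ± 1.26, limma adjusted p = 0.447) and Hoxd13 (-1.91 ± 1.07, limma adjusted p = 0.365) also missed the threshold. Leaving out pro-inflammatory diet 2 alone moved these values to -0.71 for Hoxb13, 1.14 for Reg3b, 0.93 for Osr2 and -1.14 for Hoxd13. Leaving out pro-inflammatory diet 5 alone gave -1.70, 1.28, 1.03 and -1.23.

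Without pro-inflammatory diet 2 and 5, the diet differences of all 4 markers changed sign, which says little by itself because these libraries were chosen by Hoxb13 and the markers separate the same pair. In the remaining 5 against 3 libraries Hoxb13 differed by 0.25 ± 0.16 (SE), Osr2 by -0.43 ± 0.44, Hoxd13 by 0.02 ± 0.33 and Reg3b by -1.36 ± 1.29, with limma adjusted p values of 0.460, 0.647, 0.978 and 0.621. The genes called between the sides were chosen on the same pair. Over the 340 genes higher on the low side the median diet difference was 0.57 with all libraries and -0.09 without the low pair, and over the 258 genes lower on the low side it was -0.57 and 0.05. The medians over all genes were -0.013 and -0.0045. Since pro-inflammatory diet 2 and 5 belong to both comparisons, the first value of each pair shares their measurements with the split. No gene passed the adjusted threshold in the 5 against 3 libraries either. Before adjustment, 995 had p under 0.05 upwards and 908 downwards, together 15.4% of the 12345 genes.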

How the data were processed

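Colon messenger RNA was measured in 10 libraries, 5 per diet. The authors deposited 1 table of FPKM values for 18398 genes. Per the submitters' processing notes the tools were Trimmomatic, HISAT2, Bowtie2, Cufflinks, StringTie, HTSeq and DESeq with build mm10; their roles, versions and the use of strand in counting are not given in the sources used here. The labels' protocols give a stranded library kit. Whole reads were recovered from the steps of the deposited FPKM for 18398 of 18398 genes (100%, within 0.001 read, a tolerance widened in proportion for the highest counts), 15652783 to 18341956 per library, so counting error bears mainly on genes with few reads. No 2 libraries agreed within sampling noise.

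The sides, a mean of at least 1 FPKM, a pseudocount of 1 and the 2-fold rule without overlap are described with the results. Fold changes on the log2(FPKM + 1) scale understate the change of low genes. Diet was tested with limma 3.58.1 in R 4.3.3 (eBayes with trend, Benjamini-Hochberg, adjusted p 0.05), checked on simulated data. The members and the 36 gene lists were chosen with earlier results of these data known. Named genes are the 4 markers, the 12 largest differences per direction, at most 4 per list with the other called members, and the 4 most like and unlike Hoxb13; further list members were named after their values were seen. A few listed genes are not reported here. Alternatives were other pseudocounts, filters, scalings, folds, a replicate block, each library left out, and, chosen after seeing the data, limma voom on the recovered reads and the removal of normal diet 4 with the low pair. Positions are from GENCODE M21 (17717 symbols with 1 gene), sequences from RefSeq (GRCm38.p6). Scripts used pandas 2.3.3, numpy 2.4.6, Biopython 1.88 and matplotlib 3.10.9.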

Additional observations from a re-analysis of the deposited data

Results flagged for a closer look

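Of 122 sets of 5 libraries of the same diet examined for a library far from the others, 12 held one; chance alone flags about 1 in 20 such sets. In 10 of the 12 the library was normal diet 4. Among single genes its log2(FPKM + 1) was 2.20 for Osr2, where the other normal diet libraries were at 0.09 to 0.42, 7.33 for Reg3b (1.03 to 2.44 in the others), 6.74 for Reg3g (1.29 to 2.38), 3.03 for Slc51a (0 to 0.45) and 2.03 for Retnlb (5.62 to 6.27). Retnlb was thus the 1 gene of the 5 in which it lay away from the low libraries. Among mean list levels it was at 4.34 for small intestinal enterocyte genes (2.72 to 2.91 in the others), 4.81 for ileal bile acid handling (3.12 to 3.41), 5.13 for Paneth cell genes (1.98 to 2.20), 5.79 for electrolyte and water transport (5.41 to 5.49) and 5.04 for squamous epithelium genes (0.51 to 0.55).

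The other 2 were normal diet 2 for tight junction genes, at 5.25 against 5.15 to 5.18 in the other normal diet libraries, and pro-inflammatory diet 1 for endothelial genes, at 3.36 against 3.02 to 3.11. Neither low library was flagged within its diet, since they formed a pair.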

How the results depend on the processing

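The counts called between the sides moved by over 1.5 times only with the fold and with a stricter filter. At 1.5-fold, 808 genes were higher and 588 lower over all libraries, and 956 and 643 within the pro-inflammatory diet. At 4-fold the counts were 102, 62, 118 and 73 in the same order. With a mean of at least 5 FPKM, which tests fewer genes, 207 were higher over all libraries and 231 within the diet. Leaving out each library in turn gave 334 to 404 higher and 239 to 311 lower over all libraries, and 359 to 454 and 261 to 330 within the diet; with 1 low library left these are values with no replicate check. Over 187 single genes and 15 settings, 155 of 2754 differences moved by more than 1 SD, in 76 genes. A change of sign was counted only for genes called between the sides, and 0 were found. Genes not called, some with differences near 0, were not examined for it.

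The diet counts stayed at 0 under every alternative and each library left out. The smallest limma adjusted p was 0.065 without normal diet 4, and 0.092 without normal diet 4 and the low pair. The numbers in the titles did not pair the libraries (correlations of same-numbered deviations -0.26 to 0.06, 0 of 5 best with their own number), and a replicate block on them also called 0, with 873 and 963 genes at p under 0.05 before adjustment. The side as a covariate must give the same diet differences as leaving out the low pair, since both low libraries share a diet. It is therefore no second check. Without the low pair the diet differences changed sign, none passing the adjusted threshold: Hoxb13 0.25, Osr2 -0.43, Hoxd13 0.022 and Reg3b -1.36. Without normal diet 4 as well, which moves Reg3b by over 1.5 times, they were 0.33, -0.045, 0.12 and -0.26. The cause was not tested. With 2 low libraries the spread of that side is hardly known.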

Other observations

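The calls between the sides were counted by chromosome. Of 354 tested genes on the X chromosome, 1 was called higher (0.282%) and 10 lower (2.82%), beside 2.75% and 2.09% over all tested genes. On chromosome 11, which holds Hoxb13 and its cluster, 44 of 1036 were higher (4.25%) and 12 lower (1.16%), and on chromosome 17, which holds the H2 genes, 32 of 616 were higher (5.19%) and 11 lower (1.79%). These counts were looked at after the calls were known and were not tested.

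Cdx2 and Cdx1, close relatives with overlapping roles, were at unlike ratios on the sides. Cdx2 was 118 to 123 FPKM on the low side and 53.3 FPKM or less on the high side, while Cdx1 was 172 to 227 FPKM in all 10 libraries.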
